A study of Mus musculus with 77 samples.

Results

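Of 46078 genes in the count table, 52 were switched on by both forms of Ngn3 within 2 days and were still high at 8 days. They were chosen by their levels, in counts per 1000000 reads on genes (CPM), averaged over the 3 biological replicates of a group. A gene had to reach at least 5 CPM and 8 times the GFP-only level (with a floor of 0.1 CPM) in both Ngn3 groups of 2 days. In both Ngn3 groups of 8 days it had to hold at least 0.5 times its mean 2-day Ngn3 level and at least 4 times the higher of the no-color controls. The 2-day criteria were met by 217 genes, so the 52 sustained genes were set beside the other 165 genes, which met the 2-day criteria only. Because these levels chose the genes, differences from the controls and between 2 and 8 days are described below without a test.

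Neurogenin3 (Ngn3, gene symbol Neurog3) is the basic helix-loop-helix transcription factor that commits cells of the pancreatic duct epithelium to the endocrine lineage. It acts for a short time, and the factors it switches on in turn activate the genes of a working endocrine cell, such as peptide hormones, the granins that pack them into dense-core granules, the convertases that cut prohormones, and the channels that link stimulus to secretion.

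The cells came from organoids grown from ductal cells of adult C57BL/6 mice. They carried a lentiviral Tet-on vector for GFP only, or for GFP together with WT Ngn3 or with 6S-A Ngn3, in which 6 serines that precede a proline are replaced by alanine. All cells kept their own Ngn3 gene, and the table does not separate its reads from those of the transgene. Pools of 50 sorted cells were sequenced as Smart-seq2 libraries, 77 in all. At 2 days after induction GFP-positive cells of the GFP-only, WT Ngn3 and 6S-A Ngn3 cultures gave 18 pools per group. The labels list no GFP-only group at 8 days. Cells without reporter color, sorted from the WT or the 6S-A Ngn3 cultures, served as no-color controls, with 6 pools each, beside 5 pools of WT Ngn3 and 6 pools of 6S-A Ngn3. Each group held 3 biological replicates. All were of organoid passage 2 except replicate 3 of the 4 groups of 8 days, which was of passage 5 and rested on 1 pool per group. Passage and replicate 3 cannot be told apart.

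The summed reads on genes per replicate were 17757303 to 26627347 at 2 days and 2397470 to 17919627 at 8 days, so 3 reads were worth 0.113 to 0.169 CPM at 2 days and 0.167 to 1.25 CPM at 8 days. The ductal identity of the cells was checked with 16 ductal markers, all detected in each group, whose summed level was 22356 to 23514 CPM with GFP only, 16150.4 to 17161 CPM with WT Ngn3 and 13900.0 to 15059 CPM with 6S-A Ngn3 at 2 days. Markers of fibroblasts, tuft cells, endothelial cells, acinar cells, immune cells and neural crest or Schwann cells summed to at most 7.21, 8.5, 11.1, 16.7, 20.5 and 29.5 CPM in any replicate, the last in WT Ngn3 at 8 days. Trefoil and mucous genes summed to 5.82 to 12.5 CPM with GFP only and to 162 to 296 CPM with WT and 215 to 291 CPM with 6S-A Ngn3 at 2 days, and 2 of them, Tff2 and Tff3, met the 2-day criteria only. Neurog3 itself was at 0.0398 to 0.0751 CPM with GFP only, at 219, 95.2 and 115 CPM in the 3 replicates of WT Ngn3, and at 213, 127 and 109.6 CPM in those of 6S-A Ngn3. At 8 days it was at 7.58, 43.0 and 14.5 CPM with WT Ngn3 and at 10.8, 12.9 and 14.6 CPM with 6S-A Ngn3. A pool in which fewer cells carry a transcript and a pool in which each cell carries less of it cannot be told apart in these data.

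The 250 bases before and 50 after the transcription start were available from RefSeq (GRCm38.p6) for 41 of the 52 sustained genes. They were searched on both strands for the cyclic AMP response element, TGACGTCA, which binds CREB-family factors and was described first in the somatostatin gene. The sequences of the genes that hold it are shown because they include 2 of the granule genes, a hormone and a transcription factor of the set, with the element in capitals. They lie at chr16:23890795-23891094 (minus strand) for Sst, and on the plus strand at chr2:132781392-132781691 for Chgb, chr13:75089607-75089906 for Pcsk1 and chr2:105668646-105668945 for Pax6.
Sst: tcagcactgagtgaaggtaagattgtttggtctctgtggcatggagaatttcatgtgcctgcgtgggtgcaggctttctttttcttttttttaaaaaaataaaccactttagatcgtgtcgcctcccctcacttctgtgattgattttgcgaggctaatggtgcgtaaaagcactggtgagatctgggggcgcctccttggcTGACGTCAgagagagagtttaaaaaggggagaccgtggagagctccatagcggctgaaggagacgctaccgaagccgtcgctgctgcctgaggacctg
Chgb: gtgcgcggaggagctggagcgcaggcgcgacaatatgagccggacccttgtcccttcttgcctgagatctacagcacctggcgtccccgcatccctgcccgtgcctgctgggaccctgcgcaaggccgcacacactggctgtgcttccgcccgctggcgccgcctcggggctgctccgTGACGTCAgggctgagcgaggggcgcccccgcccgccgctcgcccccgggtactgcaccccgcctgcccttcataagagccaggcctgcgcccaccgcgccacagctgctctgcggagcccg
Pcsk1: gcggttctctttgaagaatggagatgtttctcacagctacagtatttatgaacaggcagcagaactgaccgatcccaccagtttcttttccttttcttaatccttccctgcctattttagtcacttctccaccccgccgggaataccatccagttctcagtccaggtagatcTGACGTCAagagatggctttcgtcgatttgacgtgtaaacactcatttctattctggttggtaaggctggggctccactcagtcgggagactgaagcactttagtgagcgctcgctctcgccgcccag
Pax6: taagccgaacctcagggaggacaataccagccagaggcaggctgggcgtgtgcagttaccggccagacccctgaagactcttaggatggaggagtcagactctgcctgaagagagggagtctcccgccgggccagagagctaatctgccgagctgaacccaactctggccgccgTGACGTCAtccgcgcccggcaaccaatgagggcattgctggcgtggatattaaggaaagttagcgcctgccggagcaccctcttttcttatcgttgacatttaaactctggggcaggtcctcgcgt
The element began 48, 72, 78 and 76 bases before the RefSeq start site in these 4 genes, respectively. The gene coordinates given below for Sst and Chgb, from GENCODE, include the element, so the annotations differ in the start site. Pax6 had 2 windows, and 1 of them held the element. It occurred in 4 of 41 sustained genes (9.76%), in 3 of the 109 matched genes that met only the 2-day criteria (2.75%) and in 2.03% of all 27025 genes with a window. The E-box CAGATG, a sequence of the kind that Ngn3 binds together with E proteins, occurred in 7 of 41 sustained genes (17.1%), in 34 of the 109 genes of the 2-day criteria only (31.2%) and in 19.2% of all genes. The E-box CATATG occurred in 2 of 41 (4.88%), in 4 of 109 (3.67%) and in 4.48%. The match in Sst, 1 of the 4 genes with the cyclic AMP response element, was known before the search. These matches describe letters in a short window and were not tested.

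**Figure D1:**
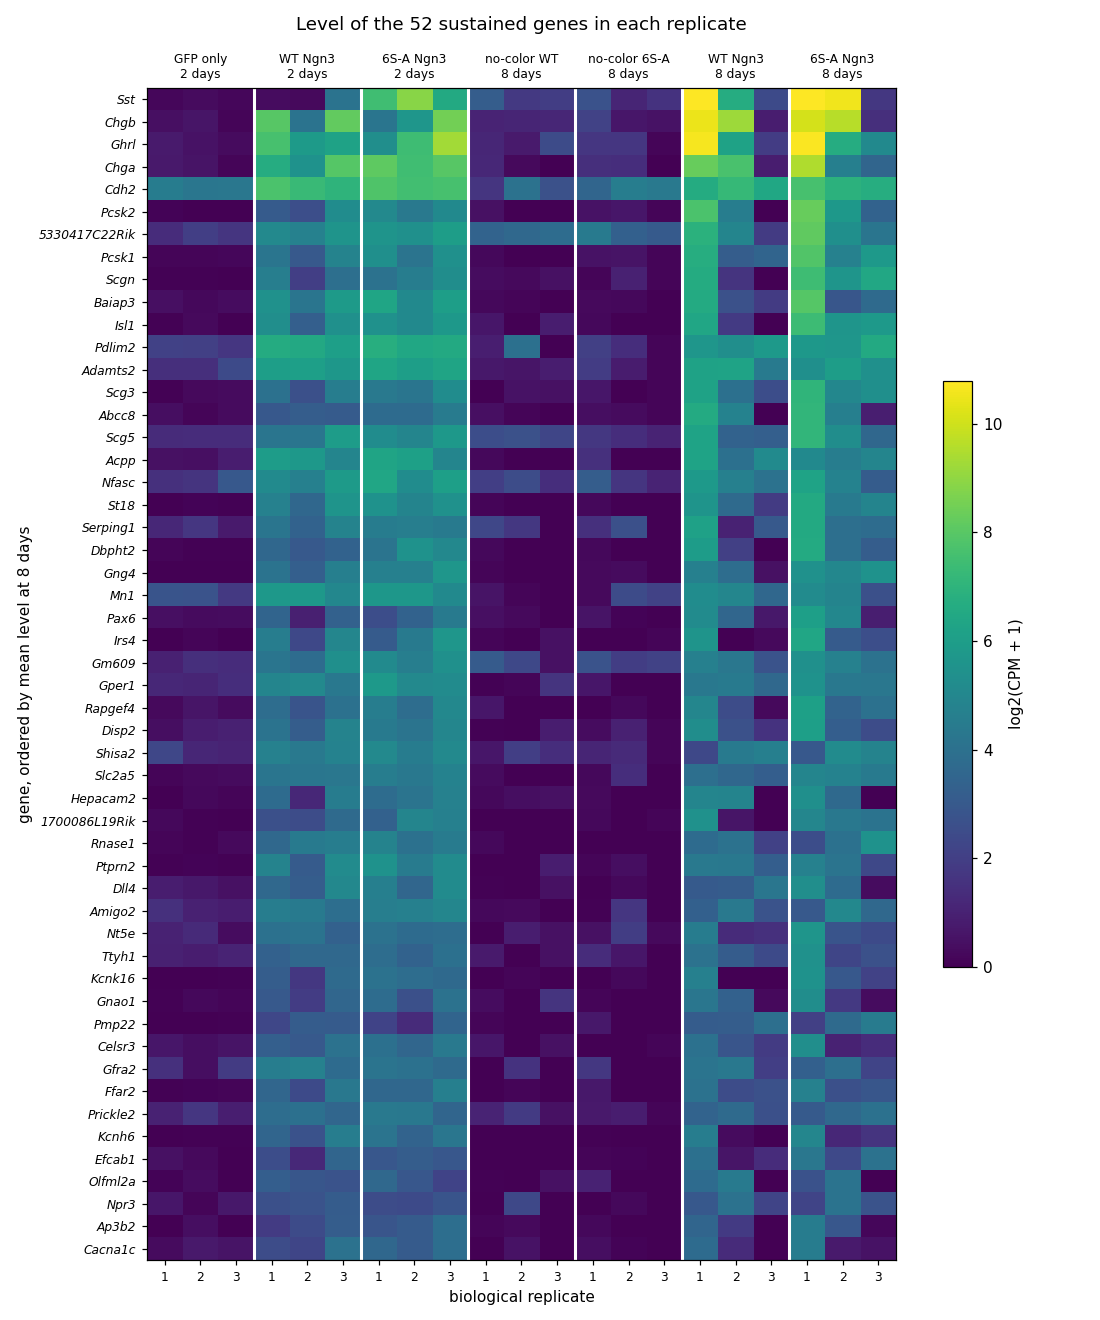
Level of the 52 sustained genes (rows, highest 8-day mean at the top) in each biological replicate (columns, 3 per group) as log2(CPM + 1). Both Ngn3 groups are bright at 2 days against GFP only. At 8 days replicate 1 is brightest and replicate 3 darkest for Sst, Chgb, Ghrl and Chga, while the order differs in other upper rows, such as Cdh2 and Pdlim2.

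Hormone and granule genes led the set. Somatostatin (Sst; chr16:23889573-23890958), the hormone of delta cells, was at 0.296, 0.222 and 16.4 CPM at 2 days with WT Ngn3, so that 2 of the 3 replicates were near 0, and at 179, 471 and 93.6 CPM with 6S-A Ngn3. At 8 days it was at 1769, 102 and 4.43 CPM with WT Ngn3 and at 1730.1, 1513 and 2.34 CPM with 6S-A Ngn3. In GFP-only cells it stayed at or below 0.239 CPM and in no-color cells at or below 8.15 CPM. The third replicate of each protein was therefore within the range of the controls at 8 days, while the other replicates were far above it. Over both proteins the 8-day mean was 6.73 times the 2-day mean, the largest ratio in the set.

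Ghrelin (Ghrl; chr6:113716119-113719880), the hormone of epsilon cells, was at 200.1, 57.7 and 73.3 CPM with WT Ngn3 and at 39.1, 172 and 622 CPM with 6S-A Ngn3 at 2 days. At 8 days the levels were 1588, 73.6 and 2.82 CPM with WT Ngn3 and 1694, 102 and 34.0 CPM with 6S-A Ngn3. Replicate 1 held 93.9% of the summed CPM of the 6 replicates of 8 days, the highest share of any sustained gene. Of 22 genes on the list of hormones and amine synthesis, Sst and Ghrl were the members of the set. No hormone gene was among the genes that met the 2-day criteria only.

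The granins and prohormone-processing genes contributed 8 of their 16 listed genes, which were Chgb, Chga, Pcsk2, Pcsk1, Scgn, Scg3, Scg5 and Ptprn2, and none of the 16 met the 2-day criteria only. Chromogranin B (Chgb; chr2:132781278-132795079) was at 255, 16.2 and 292 CPM with WT Ngn3 and at 17.2, 50.5 and 357 CPM with 6S-A Ngn3 at 2 days. It reached 1411, 594 and 0.805 CPM with WT Ngn3 and 1089.6, 781 and 1.76 CPM with 6S-A Ngn3 at 8 days. Replicates 1 and 2 of both proteins were above every 2-day replicate, and replicate 3 was within the range of the no-color controls, 0.435 to 3.35 CPM. Chromogranin A (Chga; chr12:102554969-102565028) was already high at 2 days, at 43.7 to 248 CPM with WT Ngn3 and 179.7 to 278 CPM with 6S-A Ngn3, and at 311, 204 and 0.805 CPM and 735, 24.5 and 10.5 CPM at 8 days, where its mean was 1.17 times that of 2 days.

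Both prohormone convertases of the granule were in the set. Pcsk2 (chr2:143546156-143816285) was at 7.47, 5.11 and 36.8 CPM with WT Ngn3 and at 32.9, 19.4 and 33.8 CPM with 6S-A Ngn3 at 2 days, and at 211, 22.9 and 0 CPM and at 312, 53.7 and 9.37 CPM at 8 days. Pcsk1, at 16.9 to 41.5 CPM with 6S-A Ngn3 at 2 days, was at 105, 7.98 and 10.3 CPM with WT Ngn3 and at 232, 25.8 and 57.0 CPM with 6S-A Ngn3 at 8 days. The 8-day means were 4.5 and 2.93 times those of 2 days. Scg5, the chaperone of PCSK2, had a ratio of 1.3, Scg3, a granin that binds chromogranin A, a ratio of 2.49, and the calcium-binding protein gene Scgn a ratio of 3.45. Ptprn2, a membrane protein of the granule, was near the other end, with a ratio of 0.547. The 5 largest ratios belonged to Sst, Pcsk2, Abcc8, Chgb and Scgn, at 6.73, 4.5, 4.1, 3.93 and 3.45. Replicate 1 held 68.3%, 85.9%, 82.0%, 64.5% and 66.3% of their summed CPM at 8 days, and without it Sst and Scgn no longer met the criteria.

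Of 38 listed endocrine transcription factors, 13 met the 2-day criteria only, among them Neurog3, Neurod1, Insm1, Atoh8 and Rfx6, and 3 were sustained, which were Isl1, St18 and Pax6. Over all genes that met the 2-day criteria, 52 of 217 were sustained, and the difference in share was not tested. The lower of the ratios of the WT and 6S-A 8-day means to the 2-day mean was 0.087 for Neurog3, 0.132 for Insm1, 0.264 for Neurod1, 0.282 for Atoh8 and 0.322 for Rfx6, against the 0.5 required. Over both proteins, the ratio given for the sustained genes, it was 0.118, 0.181, 0.354, 0.346 and 0.689. Rfx6 thus missed the criterion with WT Ngn3, at 21.9 ± 27.6 CPM (SD, n = 3) at 8 days against 55.8 ± 46.4 CPM at 2 days, while with 6S-A Ngn3 it was at 71.9 ± 49.6 and 80.2 ± 14.6 CPM. Isl1, a LIM-homeodomain factor of all islet cell types, was at 38.7, 8.73 and 41.3 CPM with WT Ngn3 and 43.3, 33.5 and 52.4 CPM with 6S-A Ngn3 at 2 days. At 8 days it was at 81.4, 2.58 and 0 CPM with WT Ngn3 and at 169, 48.2 and 56.4 CPM with 6S-A Ngn3. All 3 replicates of 6S-A Ngn3 were thus above the mean 2-day level of 36.3 CPM, as was replicate 1 of WT Ngn3. Pax6, needed for the hormone genes of alpha and beta cells, had a ratio of 2.66, and St18, a zinc-finger factor related to Myt1, a ratio of 1.01.

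Channel and signalling genes made up a further group. The sulfonylurea receptor Abcc8, a subunit of the ATP-sensitive potassium channel, was at 6.92, 8.12 and 7.65 CPM with WT Ngn3 and at 12.8, 12.5 and 21.4 CPM with 6S-A Ngn3 at 2 days. At 8 days it was at 95.9, 26.3 and 0 CPM and at 138, 24.1 and 0.879 CPM. The background potassium channel Kcnk16, the voltage-gated potassium channel Kcnh6 and the L-type calcium channel Cacna1c were lower, with 8-day means of 13.2, 9.38 and 6.29 CPM. Of 35 listed ion channel genes these 4 were sustained and 6 met the 2-day criteria only. From the 26 genes of G protein signalling the set held the gamma subunit Gng4, the alpha subunit Gnao1 and the fatty acid receptor Ffar2, with 8-day means of 26.1, 11.3 and 10.5 CPM. None of the 36 listed exocytosis genes was sustained, and 6 of them, including Snap25 and Cplx2, met the 2-day criteria only. The share over all genes of the 2-day criteria was 52 of 217, and the difference was not tested. When replicate 3 was left out of the 8-day groups, Snap25, Cplx2, Cadps and Rab3c met the criteria. Snap25, Cplx2 and Cadps also met them without replicate 2. The Notch ligand Dll4 and the neuronal adhesion gene Nfasc were the sustained members of their lists, with 8-day means of 14.2 and 34.2 CPM and ratios to 2 days of 0.7 and 0.679. Baiap3, a Munc13-related protein of dense-core granule release that is on none of the lists, was among the 10 highest genes of the set at 8 days. It was at 43.2, 17.3 and 57.2 CPM with WT Ngn3 and at 79.6, 34.2 and 65.8 CPM with 6S-A Ngn3 at 2 days, and at 94.6, 5.41 and 2.62 CPM and at 246, 6.49 and 12.3 CPM at 8 days, so replicate 1 held 92.7% of its 8-day sum.

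Other sustained genes are not chiefly known for a role in endocrine cells. N-cadherin (Cdh2), a cell adhesion protein, was at 213, 160.0 and 129.8 CPM with WT Ngn3 and at 226, 182 and 198 CPM with 6S-A Ngn3 at 2 days, and at 99.2, 148 and 85.8 CPM and 202, 123 and 104 CPM at 8 days. GFP-only cells held 17.7 to 22.2 CPM and no-color cells 2.16 to 22.6 CPM, so Cdh2 was also the sustained gene with the highest level in the controls. Pdlim2, a PDZ-LIM adaptor protein of the actin cytoskeleton, was at 66.7 to 98.4 CPM with WT Ngn3 and 84.1 to 108 CPM with 6S-A Ngn3 at 2 days, and at 50.6, 39.1 and 56.4 CPM and 53.2, 49.8 and 93.9 CPM at 8 days. For both genes every 8-day Ngn3 replicate was above every control replicate, replicate 3 included. The 5 smallest ratios of 8-day to 2-day means were those of Mn1, Ptprn2, Gfra2, Amigo2 and Pdlim2, at 0.54, 0.547, 0.619, 0.628 and 0.636. Over the whole set the ratio ran from 0.54 to 6.73 with a median of 1.1, and it was above 1 in 31 genes. In single replicates, 39, 12 and 1 of the 52 genes were at or above their 2-day mean in replicates 1, 2 and 3 of WT Ngn3, and 39, 18 and 14 in those of 6S-A Ngn3, so that outside replicate 1 most were below it.

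**Figure D2:**
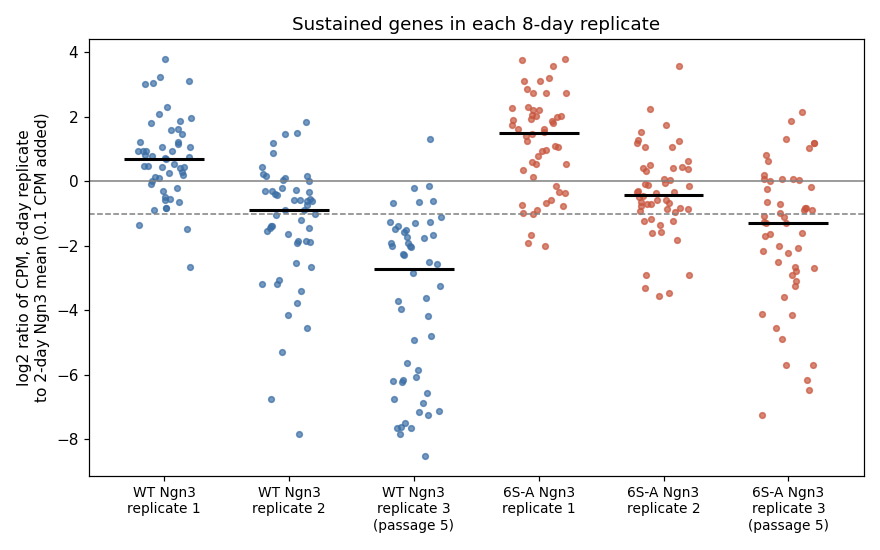
Level of each sustained gene (points) in each 8-day Ngn3 replicate relative to its mean over both 2-day Ngn3 groups, as the log2 ratio with 0.1 CPM added; bars are medians and the dashed line marks 0.5 times the 2-day mean. In replicate 1 nearly all points lie above the dashed line, and in replicate 3 of WT Ngn3 nearly all lie below it.

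The 8-day level of most sustained genes depended on the replicate. Of the 52 genes, 49, 27 and 6 were at 0.5 times the 2-day mean or more in replicates 1, 2 and 3 of WT Ngn3, and 48, 40 and 23 in those of 6S-A Ngn3. The median level of the set at 8 days was 33.0, 12.1 and 2.72 CPM with WT Ngn3 and 43.5, 18.9 and 10.8 CPM with 6S-A Ngn3. In the no-color controls it was at most 0.363 CPM. In replicate 3 of WT Ngn3, 12 genes had 0 reads, which allows up to 0.604 CPM each, among them Pcsk2, Scgn, Isl1 and Abcc8. The ductal markers summed to 22712, 16762 and 20569.7 CPM in these replicates of WT Ngn3 and to 23827, 30373 and 12483 CPM in those of 6S-A Ngn3, and their part in the order of replicates was not tested. The early genes that were not sustained had the same order of replicates, with medians of 6.97, 5.41 and 1.41 CPM for WT Ngn3 and 12.2, 7.31 and 3.37 CPM for 6S-A Ngn3.

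Replicate 1 held over 50% of the summed 8-day CPM in 36 of the 52 genes. When it was left out of the 8-day groups, 14 of the 52 still met the criteria, which were Chgb, Pcsk2, Pax6, Abcc8, Cdh2, Pdlim2, Adamts2, Amigo2, Gfra2, Shisa2, Pmp22, Prickle2, Olfml2a and Npr3. Without replicate 2, 44 of the 52 did so, and without replicate 3, the sample of passage 5, 48 did. Only Pmp22, a myelin and junction protein, and Npr3, the clearance receptor for natriuretic peptides, were at 0.5 times the 2-day mean or more in all 6 replicates. Neither met the criteria with TMM-scaled CPM, with the first technical repeat only or without replicate 3 of the 2-day groups. Npr3 also failed with the 76 libraries, which leave out the pool holding 72.3% of its summed CPM over WT Ngn3 pools at 8 days. Shisa2 had the opposite pattern to Ghrl, with 9.26% of its 8-day sum in replicate 1. It was at 4.1, 20.3 and 24.2 CPM with WT Ngn3 and at 6.92, 36.0 and 27.5 CPM with 6S-A Ngn3. These genes, apart from those named by the rule for named genes, were picked out after their values were seen.

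Between pools of 50 cells of the same replicate at 2 days, some sustained genes varied far more than others. Across the 36 pools of WT and 6S-A Ngn3, the standard deviation of log2(CPM + 1) within replicates was 3.11 for Ghrl, 3.06 for Sst and 2.87 for Chgb, and 0.283 for Cdh2 and 0.311 for Pdlim2, with a median of 0.913 over the set. Sst reached 10 CPM in 2 of 18 pools with WT Ngn3 and in 9 of 18 with 6S-A Ngn3, and its highest pool, at 3099 CPM, held 58.2% of the sum over the 6S-A pools. Chga, of a similar mean level to Ghrl, reached 10 CPM in 15 and in all 18 pools. The lowest of these pools held 111 CPM of Cdh2 and 58.6 CPM of Pdlim2. Altogether 35 of the 52 genes had reads in all 36 pools. The median WT pool held 0.106 CPM of Sst, and the part of counting error in these spreads was not tested.

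**Figure D3:**
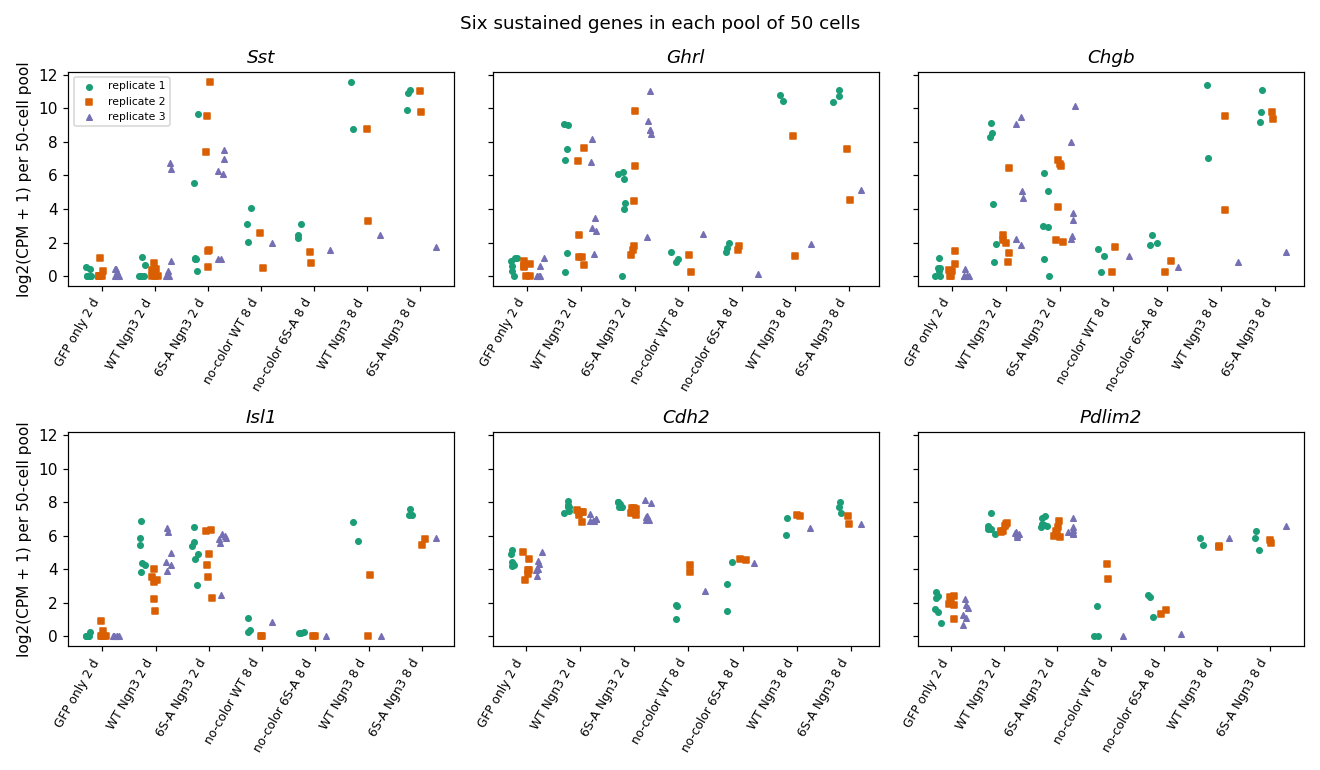
Level of 6 sustained genes in each pool of 50 cells as log2(CPM + 1), by group (x axis) and biological replicate (symbols). Sst, Ghrl and Chgb spread over the whole axis between pools of the same group at 2 days, while Cdh2 and Pdlim2 stay within a narrow band.

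WT and 6S-A Ngn3 were compared with edgeR's quasi-likelihood test over all genes, a contrast that the choice of genes did not use, although requiring both proteins to pass limits how far apart they can be. At 2 days none of the 52 genes passed an adjusted p of 0.05, against 3 of 23844 genes tested (0.0126%). At an unadjusted p under 0.05, 8 of the 52 genes passed, all with the higher level under 6S-A Ngn3, against 2.55% of all genes in that direction. DESeq2 called 3 of the 52, which were Sst, Abcc8 and Dbpht2, and 101 genes in all. The fitted value was higher with 6S-A Ngn3 in 47 of the 52 genes, against 49.8% of all genes, with a median log2 difference of 0.47. This median was 0.10, with 33 genes higher, when only the first technical repeat was used, 0.27 without replicate 2 and 0.92 without replicate 3 of WT Ngn3. The early genes that were not sustained gave 154 of 165 and a median of 0.49. Beside this, the median log2 difference of the 16 ductal markers was -0.26, none of them passed, and their part in the difference was not tested.

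**Figure D4:**
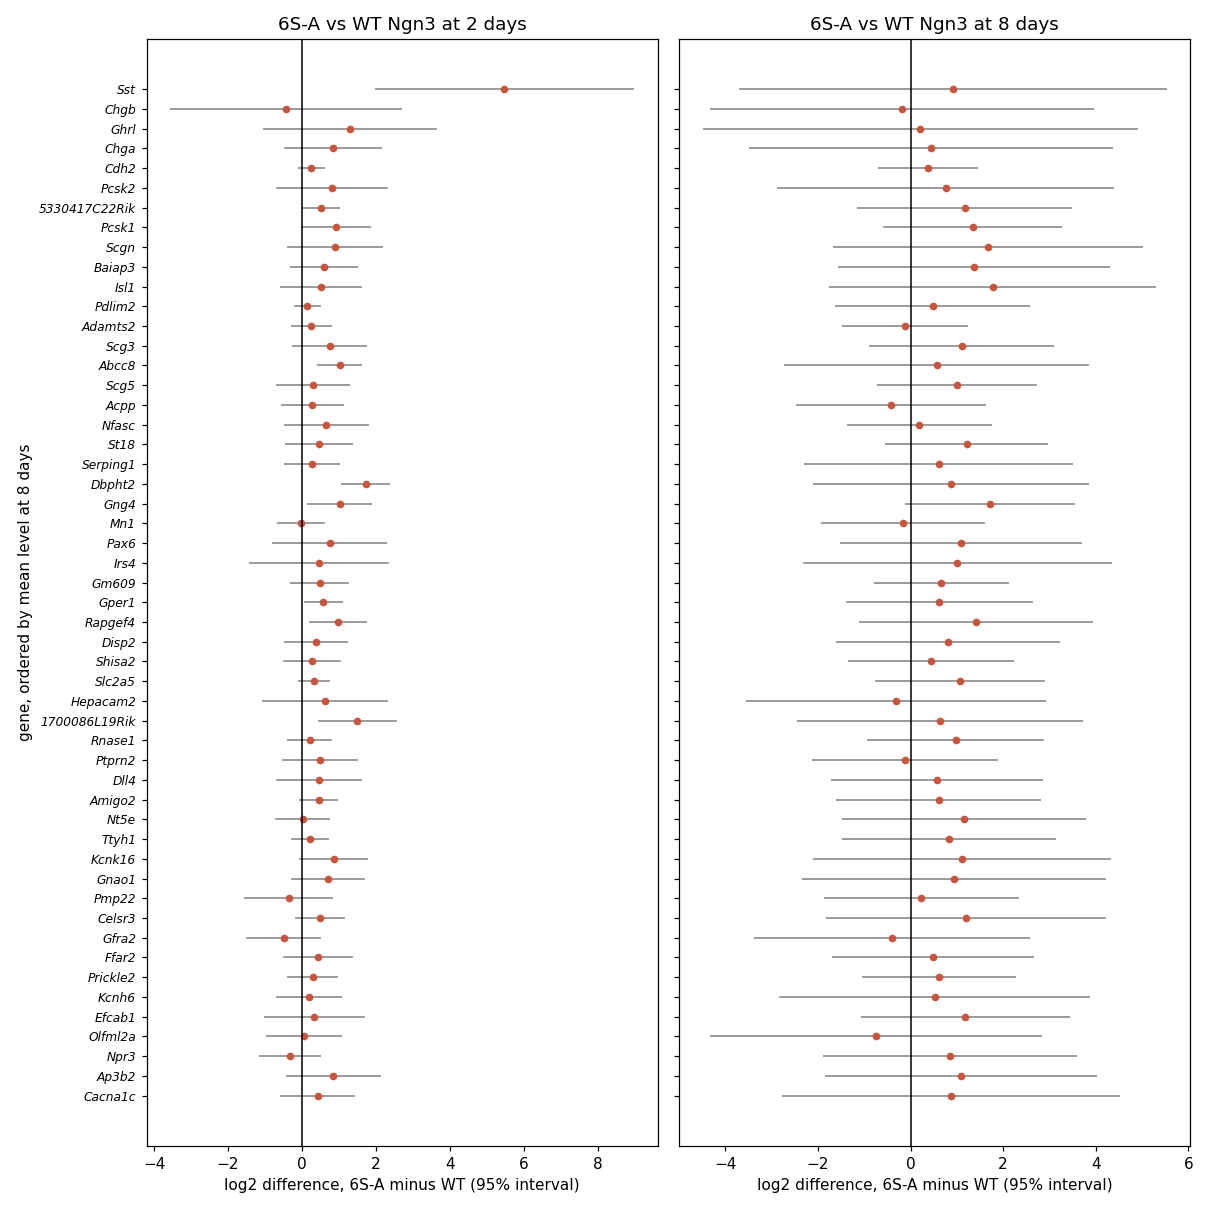
Fitted log2 difference between 6S-A and WT Ngn3 for each sustained gene at 2 days (left) and 8 days (right), with its 95% interval. Points lie mostly right of 0 at both times, at medians of 0.47 and 0.78, and the intervals are wider at 8 days.

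The smallest p-values at 2 days were those of Dbpht2, Abcc8, Sst, 1700086L19Rik and Rapgef4. Dbpht2 (chr12:74296668-74302008), a long noncoding RNA, and 1700086L19Rik (chr12:74284242-74295945), a transcribed pseudogene, are neighbours on the plus strand. Whether their reads come from separate transcripts was not tested. Dbpht2 was at 11.2, 7.0 and 9.38 CPM with WT Ngn3 and at 16.7, 44.7 and 31.5 CPM with 6S-A Ngn3, a log2 difference of 1.72 ± 0.31 (SE, n = 3 per group; adjusted p = 0.164 in edgeR). For Abcc8 the difference was 1.02 ± 0.283 (adjusted p = 0.473 in edgeR) and for Sst 5.48 ± 1.45 (adjusted p = 0.585 in edgeR), where 2 of the 3 WT replicates held 7 and 4 reads. Leaving out a replicate gave 4.62 to 9.81 for Sst. Rapgef4, a cyclic AMP sensor that acts in exocytosis, differed by 0.97 ± 0.364 (adjusted p = 0.757 in edgeR). Every 6S-A replicate was above every WT replicate in 7 of the 52 genes, which were Sst, Abcc8, Dbpht2, Gng4, Gper1, Slc2a5 and Amigo2, against 5.83% of all genes tested.

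At 8 days none of the 52 genes passed, as 0 of 19696 genes tested (0%), none had an unadjusted p under 0.05 in edgeR, where 415 genes (2.11%) did, and DESeq2 called none. The fitted value was higher with 6S-A Ngn3 in 44 of the 52 genes, against 51.8% of all genes, with a median log2 difference of 0.78. For the early genes that were not sustained it was higher in 133 of 162 tested, with a median of 0.73. The median width of the 95% interval was 4.96 on the log2 scale, compared with 1.87 at 2 days. The median moved from -0.44, with 23 of 52 genes higher, without replicate 1 of 6S-A Ngn3 to 2.61 without replicate 1 of WT Ngn3, where Scgn and Isl1 passed. With passage 2 alone it was 0.68, with 43 genes higher. Taken between samples of the same replicate number, as the median difference in log2(CPM + 1), it was 0.72, 0.56 and 0.89 for replicates 1, 2 and 3 at 8 days and 0.51, 0.76 and 0.32 at 2 days, although the labels do not state that a number marks a shared culture.

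The smallest p-values at 8 days were those of Gng4, Pcsk1, St18, Slc2a5 and Scg5, with log2 differences of 1.72, 1.34, 1.21, 1.07 and 1.0. When a replicate was left out they ran, in this order, from 1.15 to 2.77, 0.0965 to 3.32, 0.353 to 2.64, 0.876 to 1.21 and -0.264 to 2.69. Gng4 was at 25.1, 13.4 and 0.403 CPM with WT Ngn3 and at 42.9, 31.2 and 43.8 CPM with 6S-A Ngn3 (SE of the difference 0.868, adjusted p = 1 in edgeR). Slc2a5, the fructose transporter GLUT5, was at 14.6, 11.1 and 8.46 CPM with WT Ngn3 and at 29.4, 26.5 and 20.6 CPM with 6S-A Ngn3. These were the 2 of 52 genes in which every 6S-A replicate was above every WT replicate, against 2.47% of all genes tested. Both had also been apart in this direction at 2 days, when Gng4 was at 16.1, 8.51 and 24.5 CPM with WT Ngn3 and 24.9, 25.3 and 50.4 CPM with 6S-A Ngn3. At that time Slc2a5 differed by 0.32 on the log2 scale (unadjusted p = 0.123 in edgeR). Gng4 did not meet the criteria with TMM-scaled CPM or with the 76 libraries of the tests.

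The difference between 6S-A and WT Ngn3 was not shown to change from 2 to 8 days. None of the 52 genes passed in the joint fit, as 0 of 19589 genes (0%), and none had an unadjusted p under 0.05 in edgeR, against 445 of all genes (2.27%), while DESeq2 called 4 genes, none of them sustained. The median change was 0.27 on the log2 scale, but its direction rested on single replicates, with -0.79 without replicate 1 of 6S-A Ngn3 and 1.85 without replicate 1 of WT Ngn3 at 8 days, and -0.06 without replicate 3 of WT Ngn3 at 2 days. The largest in size was that of Sst, at -4.55 with a 95% interval of -10.0 to 0.92. In the no-color cells, where the median log2 difference was 0.17 with 31 genes higher in the 6S-A cultures, 6S-A and WT cultures differed in none of the 52 genes at an adjusted p of 0.05 in edgeR or DESeq2, against 0 of 19696 genes in edgeR (0%) and 38 genes in DESeq2. At an unadjusted p under 0.05 in edgeR, 2 of the 52 genes passed, against 1649 of all genes (8.37%). These were Mn1 with a log2 difference of 3.29 and Npr3 with -4.44 (adjusted p = 0.549 in edgeR for each). The set lay close to the floor there, with medians of 0 to 0.363 CPM.

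The rest of the pathway lists was tested without the sustained genes, whose differences from the controls were used to choose them. Against GFP only at 2 days, 6.56% of all genes were called higher and 5.23% lower under WT Ngn3 in edgeR, and 9.43% and 8.62% under 6S-A Ngn3. Against the no-color controls at 8 days, 0.741% (146 genes) were called higher and 0.173% lower under WT Ngn3, and 1.37% (270 genes) and 0.34% under 6S-A Ngn3. These 8-day counts of higher genes rested on single replicates, since they fell to 63 and 149 without replicate 1 of the WT and of the 6S-A Ngn3 group, respectively, and they were 348 and 469 in DESeq2. Of the 7 granins and prohormone-processing genes tested that were not sustained, 4 were called higher under WT Ngn3 and 5 under 6S-A Ngn3 at 2 days, where 0 and 1 were called lower, and 3 and 4 of 7 were called higher at 8 days. For the hormones and amine synthesis the counts were 1 and 3 of 9 at 2 days and 3 and 1 of 7 at 8 days. For the endocrine transcription factors they were 20 and 22 of 30 at 2 days, with 2 and 3 called lower, and 8 and 12 of 27 at 8 days. The 34 exocytosis genes tested, none of them sustained, had 17 and 21 called higher at 2 days and 4 and 9 of 31 at 8 days. For the ion channels the counts were 11 and 15 of 29, then 3 and 3 of 23, and for G protein signalling 6 and 9 of 22, with 4 and 5 called lower, then 1 and 1 of 21. For neuronal cytoskeleton, adhesion and RNA-binding genes they were 17 and 22 of 40, with 2 and 2 called lower, then 3 and 5 of 34, and for Notch ligands, fringes and effectors 7 and 9 of 20, with 1 and 1 called lower, then 1 and 2 of 16. The axon guidance and cell cycle exit lists, which hold no sustained gene, had 11 and 13 of 39 and 2 and 3 of 12 called higher at 2 days, with 4 and 6 and with 0 and 2 called lower, and 5 and 5 of 36 and 0 and 0 of 12 called higher at 8 days. None of the hormone genes, exocytosis genes or channels was called lower, and at 8 days the only gene of these 10 lists called lower was 1 of axon guidance under WT Ngn3. Of the 16 ductal markers, 7 and 8 were called lower and 2 and 2 higher at 2 days, and 2 and 3 were called lower and none higher at 8 days, when they summed to 15100.1 to 40225 CPM in the no-color controls. Genes that met only the 2-day criteria remain in these counts, so for them the 2-day calls are no separate evidence of direction.

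For the ratio of the 8-day to the 2-day level, where 0.5 was required, Gper1, Cacna1c and Gfra2 lay just inside at 0.501, 0.502 and 0.505, and Rnase4, Gcnt3 and Cplx2 just outside at 0.498, 0.494 and 0.489. For the fold over GFP only, Cdh2, Gfra2 and Prickle2 were inside at 8.59, 9.28 and 9.34, and Htra1, Snai2 and Rtn2 outside at 7.9, 7.36 and 7.23. For the 2-day level, Npr3, Ap3b2 and Pmp22 were inside at 5.03, 5.08 and 5.09 CPM, and Prune2 and Antxr1 were among those outside, at 4.36 and 4.16 CPM. For the fold over the no-color controls, 5330417C22Rik, Gm609 and Npr3 were inside at 4.02, 4.06 and 6.31, and Clstn2, Upp1 and Grm8 outside at 3.7, 3.29 and 0.888. Of the 52 genes, 50 are annotated as protein coding, and 13 share exonic bases with another gene, such as Ghrl and Pcsk2 with antisense genes. The unstranded reads on such bases cannot be told apart. Reads counted as ambiguous (8.06% of the table) were left out, so reads on these bases may be missing from the counts.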

How the data were processed

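Read counts per gene were deposited by the authors for 77 Smart-seq2 libraries, each of a pool of 50 cells, without normalization. Per the labels the processing used GSNAP, HTSeq (0.5.3p3) and the build mm10. The lines for reads in no feature (14.4% of the table), ambiguous reads (8.06%) and reads not aligned (22.5%) were left out, as were 92 spike-ins. Every column was used. Symbols were found for 45143 of 46078 identifiers. Gene coordinates come from GENCODE M21 (GRCm38, the assembly of mm10) and promoter sequences from RefSeq.

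Technical repeats were summed per biological replicate. Sustained genes were found in all 77 libraries by plain CPM. For the tests, the study's limits (spike-in share below 30%, more than 1000000 reads on genes, more than 10000 detected genes) kept 76 libraries, and left out 1 pool of WT Ngn3 replicate 2 at 8 days. The paper reports 2 samples left out, so the libraries tested here may differ from its own. Genes with reads in 5 or more kept libraries of the time point entered edgeR 4.0.16 in R 4.3.3 (TMM, robust quasi-likelihood test, Benjamini-Hochberg adjustment over all genes, threshold 0.05), with all groups of a time point in a single fit (n = 3 each). DESeq2 1.42.0, other normalizations, filters and library choices, a replicate block and leaving out each replicate were alternatives, and passage 2 alone was added after the data were seen. The scripts were tested on simulated counts.

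The sustained genes and the gene lists were chosen with earlier results of these data known. The genes named are Neurog3, Neurod1, Insm1, Atoh8 and Rfx6, the 10 sustained genes highest at 8 days, the 5 largest and 5 smallest ratios of 8 to 2 days, members of the gene lists (the 4 highest of each with values), the 5 smallest p-values for 6S-A against WT at each time, and the 3 genes on either side of each limit, of which 1 is not reported here. Other genes are named as chosen after their values were seen. The numbers of reads limit precision, and the floor of 3 reads covers counting error only. The labels name the replicates as biological, and p-values measure the spread between these samples.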

Additional observations from a re-analysis of the deposited data

How the results depend on the processing

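The number of genes meeting the criteria was 49 with the 76 libraries, 40 with TMM-scaled CPM, 52 with a floor of 0.5 CPM, 53 with each culture's own no-color control and 50 when only the first technical repeat was used, and these shared 48, 40, 52, 52 and 34 genes with the 52. Leaving out a replicate number at 2 or 8 days gave 15 to 68 genes, and the count of 15 came without replicate 1 at 8 days.

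For 6S-A against WT Ngn3 at 2 days, the sustained genes called were 3 with DESeq2, 1 with no filter on low counts, 3 with the first technical repeat (Sst, Chgb and Ghrl) and 0 in every fit that left out a replicate. The median log2 difference was 0.10 with the first technical repeat, with 33 of 52 genes higher, and 0.27 to 0.92 when a replicate was left out (0.27 without replicate 2 and 0.92 without replicate 3 of WT Ngn3). At 8 days it was 0.55 with the first technical repeat and -0.44 to 2.61 when a replicate was left out (the ends without replicate 1 of 6S-A and of WT Ngn3, and 0.41 without replicate 3 of WT Ngn3), with 0 to 2 genes called. For Scg5 at 8 days, leaving out a replicate gave -0.26 to 2.69, the only sign change among the 10 genes with the smallest p-values, and it came without replicate 1 of 6S-A Ngn3. The median change from 2 to 8 days was 0.67 with the first technical repeat and -0.79 to 1.85 when a replicate was left out (the ends again without replicate 1 of 6S-A and of WT Ngn3 at 8 days), with 0 genes called. In the no-color cells the median, 0.17 in the test as reported, was 0.10 with DESeq2 size factors, 0.052 with the DESeq2 test, 0.0904 with filterByExpr, 0.74 with passage 2 alone and -0.99 to 0.56 when a replicate was left out. There 1 sustained gene, Mn1, was called with no filter and 0 when a replicate was left out.

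Over all genes, the first technical repeat called 733 genes higher with WT and 863 with 6S-A Ngn3 at 2 days, instead of 1563 and 2249, and 93 with WT Ngn3 at 8 days, instead of 146. DESeq2 called 348 and 469 at 8 days, instead of 146 and 270. Leaving out a replicate gave 1111 to 1539 and 1684 to 2339 at 2 days, and 63 to 182 and 149 to 285 at 8 days. At 8 days the lowest counts, 63 and 149, came without replicate 1 of the Ngn3 group itself, and WT Ngn3 replicate 2 and replicates 1 and 3 of either no-color control also lowered the WT count, to between 75 and 95, while replicates 1 and 3 of the WT and replicates 2 and 3 of the 6S-A no-color control lowered the 6S-A count to 166, 196, 177 and 164. The cause of these shifts was not tested.

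Groups share replicate numbers in the labels, which do not say what a number stands for, other than that number 3 is of passage 5 in all 4 groups of 8 days. Deviations of same-numbered samples correlated at 0.0436 to 0.184 at 2 days (over 0.1 in 6 of 9 pairs) and at 0.069 to 0.478 at 8 days (in 15 of 18 pairs), and all 9 and 12 samples correlated best with a sample of their own number, a hint from the data only. The numbers were not taken as pairing the samples. With the replicate number as a block, 2 sustained genes (Pcsk1 and Gng4) were called at 2 days and 0 at 8 days, the no-color median was 0.36, and 350 and 472 genes were called higher with WT and 6S-A Ngn3 at 8 days.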
